A study of Homo sapiens with 12 samples.

Results

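In DU145 cells, an established line from a human prostate cancer that grows without androgen, RNA was compared between cells that received an siRNA against ATF6 (siATF6, 3 libraries) and cells that received a control siRNA (siCtrl, 3 libraries). These are 6 of the 12 libraries of the series. Both siRNA groups were cultured for 24 h after transfection. The other 6 libraries form a compound arm, in which cells received 10 µM Ceapin-A7 (Ceapin, 3 libraries), an inhibitor of ATF6 that keeps it in the endoplasmic reticulum (ER), or its solvent (DMSO, 3 libraries), for 12 h. All 4 groups received 30 nM thapsigargin, a blocker of the ER calcium pump, for 3 h before harvest, so the siCtrl cells were stressed too and no unstressed cells were sequenced. Genes were taken from the whole count table after a filter on low counts, and the account centres on genes outside the usual lists of the unfolded protein response. For each large change, the level in the compound arm was used to say which siRNA group stood away from the rest.

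ATF6 is a transcription factor that sits in the ER membrane as an inactive precursor. When unfolded proteins build up, it moves to the Golgi, is cut there by proteases, and its freed part enters the nucleus and turns on ER chaperones and degradation factors through ER stress response elements in their promoters. An siRNA lowers the mRNA with which it pairs along its whole length, and can also lower other mRNAs whose 3′ untranslated region (UTR) pairs with its seed, the short stretch near its 5′ end.

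Total counts ran from 18877582 to 19028088 in the siATF6 libraries and from 17782165 to 19202632 in the siCtrl libraries, within a range of 17760878 to 19202632 over all 12. The table lists 21439 genes, and 17823 remained for testing once low counts were removed. The first principal component held 62.4% of the variance and set the 2 arms apart. The second held 8% and parted siATF6 from siCtrl, with scores of 17.86 to 19.07 in siATF6 and −19.55 to −17.8 in siCtrl, and the compound arm lay near 0 between them (−0.99 to 0.46). On the first component siATF6 (−36.96 to −35.95) and siCtrl (−37.16 to −36.09) overlapped. On the second component the range of Ceapin (−0.99 to 0.46) enclosed that of DMSO (0.04 to 0.19). By the treatment text the arms differ in transfection and in the length of treatment, and these cannot be told apart in any distance from the compound arm given here. A further label field names an siRNA for the compound arm too (control siRNA for DMSO, ATF6 siRNA for Ceapin), so whether those cells were transfected is not settled, and each placement against the compound arm carries that doubt.

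ATF6 itself (chromosome 1, 161766294 to 161964070 of GRCh38, + strand) had 26.6, 25.6 and 25.0 CPM (counts scaled for library size) in the siATF6 libraries, against 123, 126 and 125 CPM in the siCtrl libraries. It stood at 72.9 ± 1.91 CPM in Ceapin and 71.4 ± 1.99 CPM in DMSO (SD, n = 3 each). The 4.84-fold difference between the siRNA groups (−2.27 on the log2 scale, SE 0.0379, edgeR adjusted p = 9.4e-30) was therefore made of 2 distances from the compound arm, siATF6 lying below it by −1.49 and siCtrl above it by 0.79 on the log2 scale. A fold change between the siRNA groups alone does not show this.

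After ATF6 siRNA, 2869 genes rose (16.1% of those tested) and 2720 fell (15.3%) by edgeR's quasi-likelihood test with Benjamini-Hochberg adjusted p under 0.05. Most changes were small, with a median of 1.18-fold among the called genes. Outside the 6 lists of the unfolded protein response, 2811 of 17601 tested genes rose (16%) and 2651 fell (15.1%). Within those lists 58 of 222 rose (26.1%) and 69 fell (31.1%). Members of the lists were thus called more often than other genes, and, since the lists hold 1.25% of the tested genes, most called genes lay outside them. The other genes include sparse ones, and the part of expression level in this difference was not tested.

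Changes of at least 2-fold were few: 138 genes, or 0.774% of those tested, of which 31 rose and 107 fell. All but 3 of the 31 rises and 3 of the 107 falls lay outside the lists of the unfolded protein response (90.3% of the rises and 97.2% of the falls), where 98.8% of all tested genes lie. The 3 siATF6 libraries and the 3 siCtrl libraries did not overlap in 26 of the 31 rises and in 94 of the 107 falls, where 41.4% of all tested genes showed no overlap. Many of these genes were sparse: 18 of the rises and 42 of the falls had a mean under 1 CPM. The number of large rises depended on 1 library, and was 53 without siCtrl replicate 1.

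Each large change was then placed by its fitted log2 distance from the mean of Ceapin and DMSO. A gene was put down as having siATF6 apart where the siATF6 distance was at least 2 times the siCtrl distance in size, and as having siCtrl apart in the converse case. These distances are a description, since the comparisons share libraries, and 65.4% of all tested genes differed between siATF6 and the compound arm and 66.1% between siCtrl and the compound arm at the same threshold. Among the 107 falls, siATF6 stood apart in 56 (52.3%), siCtrl stood apart in 24 (22.4%), the compound arm lay between the siRNA groups in 19, and both siRNA groups lay on the same side of it in 8. Of the 65 falls with a mean of at least 1 CPM, 32 had siATF6 apart and 16 had siCtrl apart.

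The rises divided less clearly. Among all 31, siATF6 stood apart in 7 (22.6%), siCtrl stood apart in 13 (41.9%), the compound arm lay between in 11, and both groups lay on the same side in none. Restricted to a mean of at least 1 CPM, siATF6 stood apart in 5 of 13 rises and siCtrl in 5 of 13. With no such limit, the order of 7 and 13 rested on single siATF6 libraries. Without siATF6 replicate 1 the counts over all large rises were 11 with siATF6 apart and 11 with siCtrl apart, and without siATF6 replicate 3 they were 15 and 13. Without siATF6 replicate 2 they were 12 and 19, and without siCtrl replicate 1 they were 12 and 24. Among large falls the count with siATF6 apart exceeded that with siCtrl apart in each alternative run, whereas no such order was stable for the large rises. The order did not extend to all called falls, where siATF6 stood apart in 756 of 2720 (27.8%), siCtrl in 729 (26.8%), and both groups lay on the same side in 981 (36.1%). Among all called rises, siATF6 stood apart in 617 of 2869 (21.5%) and siCtrl in 847 (29.5%).

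**Figure D1:**
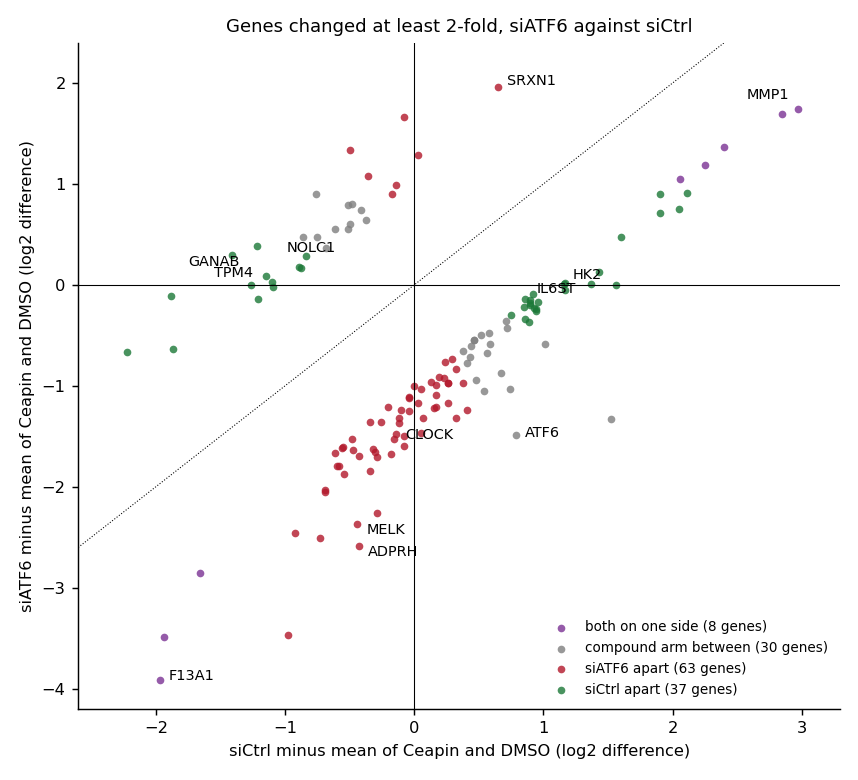
Each point is 1 of the 138 genes that changed at least 2-fold between siATF6 and siCtrl. The vertical axis gives the fitted log2 distance of siATF6 from the mean of Ceapin and DMSO, the horizontal axis that of siCtrl, and the dotted diagonal marks equal distances. Genes near the vertical axis line, such as MELK and CLOCK, have siATF6 apart; genes near the horizontal axis line, such as HK2 and TPM4, have siCtrl apart.

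Among the losses in siATF6, MELK had the largest fall of the genes named here above 10 CPM. MELK (chromosome 9, 36572862 to 36677683, + strand) encodes a protein kinase of the AMPK-related family that is abundant in dividing cells. Its levels were 35.6, 34.2 and 32.7 CPM in siATF6, against 128, 129 and 135 CPM in siCtrl, with 175 ± 4.02 CPM in Ceapin and 178 ± 3.33 CPM in DMSO. All 3 siATF6 libraries lay far below the other 9. The fall was 3.82-fold (−1.93 on the log2 scale, SE 0.0372, edgeR adjusted p = 3.8e-28). The siCtrl libraries were themselves below the compound arm, by −0.44. In the list of AMPK and related kinases, 5 of 20 tested members rose and 5 fell (25% each, MELK included), beside 16.1% and 15.3% of all tested genes.

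ADPRH, an enzyme that removes ADP-ribose from arginine, showed the same pattern at a low level. It had 1.69, 1.95 and 1.47 CPM in siATF6, against 7.13, 8.30 and 7.35 CPM in siCtrl, and 10.1 ± 0.352 CPM in Ceapin beside 10.5 ± 0.266 CPM in DMSO. The 4.45-fold fall (log2 fold change −2.15, SE 0.132, edgeR adjusted p = 7.5e-15) was the largest after ATF6 among the genes named here. In its list of NAD and ADP-ribose metabolism, 5 of 31 tested genes rose (16.1%, the share over all tested genes) and 11 fell (35.5%, against 15.3%).

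PYGB, the brain form of glycogen phosphorylase, which releases glucose from glycogen, had 39.6, 39.4 and 40.2 CPM in siATF6, against 114, 112 and 111 CPM in siCtrl (log2 fold change −1.50, SE 0.0369, edgeR adjusted p = 2.7e-25). In the compound arm it averaged 143 ± 6.20 CPM in Ceapin and 142 ± 1.84 CPM in DMSO. ADGRG6, an adhesion G protein-coupled receptor known for its part in myelination, was among the most abundant of these genes, with 169.8, 163 and 169 CPM in siATF6 against 444, 448 and 448 CPM in siCtrl (−1.42, SE 0.0233, edgeR adjusted p = 9.4e-30). Its means in the compound arm were 537 ± 10.3 CPM in Ceapin and 559 ± 1.99 CPM in DMSO. For both genes the siCtrl libraries lay below the compound arm and the siATF6 libraries lay far lower still. PYGB overlaps ABHD12 on the other strand.

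CLOCK (chromosome 4, 55427903 to 55547138, − strand), the transcription factor that pairs with BMAL1 to drive the circadian clock, had 50.1, 48.1 and 48.0 CPM in siATF6 against 119, 127 and 124 CPM in siCtrl. Ceapin and DMSO stood close to siCtrl, at 136 ± 3.59 and 135 ± 4.04 CPM. The siATF6 distance from the compound arm was −1.48 and the siCtrl distance −0.14 (siATF6 minus siCtrl −1.34, SE 0.0358, edgeR adjusted p = 2.5e-24). In the clock list 4 of 21 tested genes rose (19%, beside 16.1% of all tested genes) and 6 fell (28.6%, beside 15.3%). Other members had their high level in siCtrl. NR1D2, a nuclear receptor that represses clock genes, averaged 59.5 ± 1.82 CPM in siATF6 and 90.2 ± 1.97 CPM in siCtrl, with 47.7 ± 2.51 CPM in Ceapin and 45.9 ± 0.774 CPM in DMSO. RORA, a nuclear receptor that activates them, was above the compound arm in both siRNA groups, by 0.98 in siATF6 and 1.42 in siCtrl. CLOCK overlaps TMEM165, and NR1D2 overlaps NKIRAS1, on the other strand.

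OAS3, a synthetase activated by double-stranded RNA, had 35.9, 37.3 and 36.9 CPM in siATF6 against 84.3, 84.8 and 82.0 CPM in siCtrl, while Ceapin averaged 90.7 ± 3.77 CPM and DMSO 91.9 ± 0.521 CPM. The siCtrl level lay only −0.12 from the compound arm, and the siATF6 level −1.32. In the list of sensors of foreign RNA and DNA, 12 of 23 tested genes fell and 2 rose, where 15.3% of all tested genes fell, with a list median of −0.25. The members were not alike in which group stood apart. EIF2AK2, the kinase PKR that is activated by double-stranded RNA, averaged 145 ± 3.03 CPM in siATF6 and 172 ± 4.19 CPM in siCtrl, with 134 ± 4.01 CPM in Ceapin and 139.5 ± 1.13 CPM in DMSO, so that here siCtrl was the high group. STING1, the adaptor of the DNA sensor cGAS, was below the compound arm in both, by −0.95 in siATF6 and −0.49 in siCtrl.

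Further genes had siATF6 apart and low. SEMA3C, a secreted guidance protein, averaged 157 ± 4.28 CPM in siATF6 and 288 ± 6.09 CPM in siCtrl (−0.88), and NF2, the tumour suppressor merlin that acts upstream of the Hippo kinases, 30.8 ± 0.386 and 53.8 ± 0.851 CPM in the same groups (−0.81). Moesin (MSN), which ties actin filaments to the membrane, averaged 499.9 ± 12.9 CPM in siATF6 and 913 ± 6.49 CPM in siCtrl (−0.87). MAP1B, a microtubule-associated protein, averaged 437 ± 3.92 CPM in siATF6 and 746 ± 11.2 CPM in siCtrl (−0.77). For each of these 4 genes all 3 siATF6 libraries lay below the other 9, which held for the siATF6 libraries, above or below, in 17% of all tested genes. RPS27, a ribosomal protein, averaged 473 ± 12.3 CPM in siATF6 and 839 ± 23.1 CPM in siCtrl (−0.83), but its reads can be shared with pseudogene copies.

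**Figure D2:**
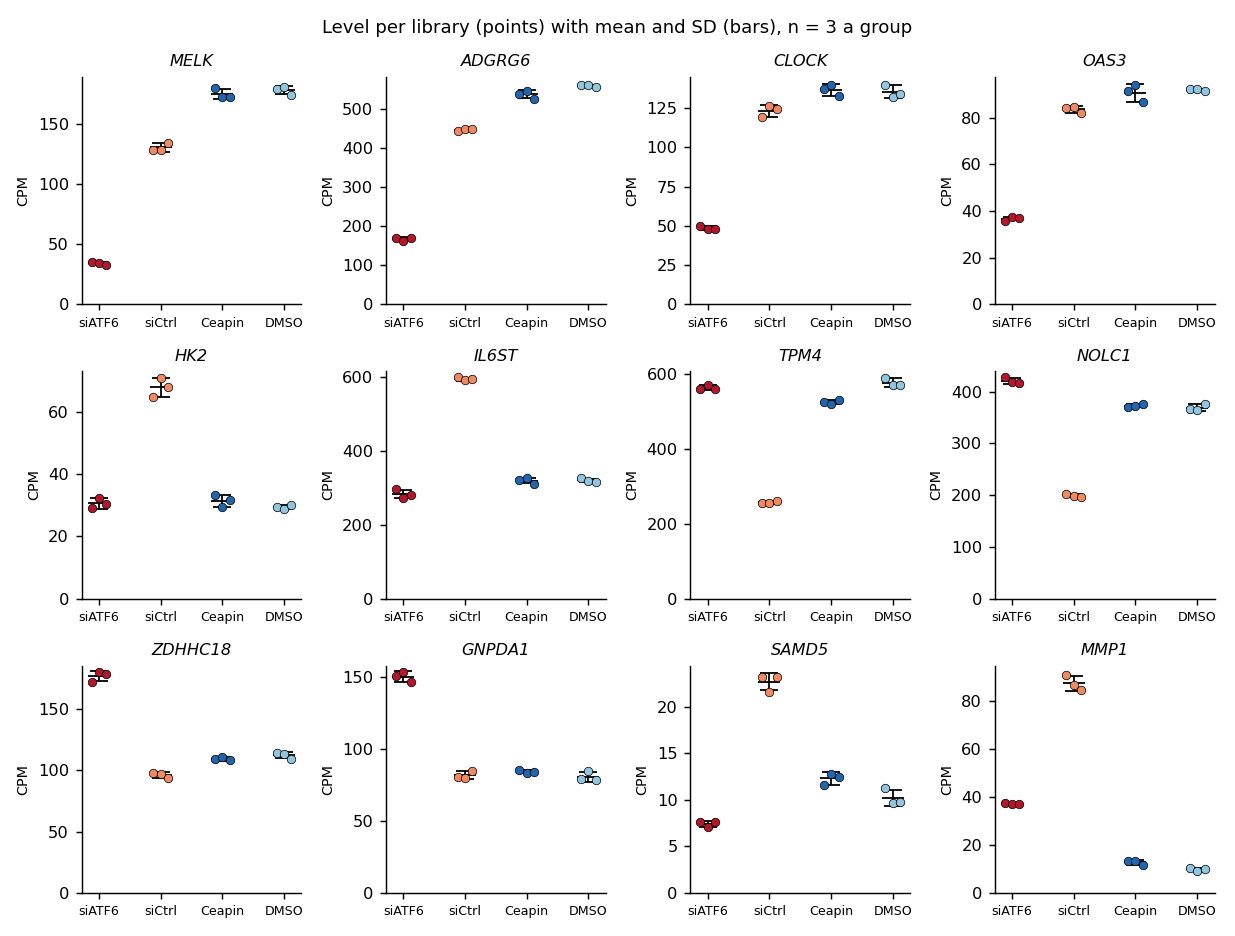
Levels in CPM (vertical axes, from 0) of 12 genes in the 3 libraries of siATF6, siCtrl, Ceapin and DMSO (horizontal axes); points are libraries, bars the mean and SD. In the top row siATF6 is low against the other 3 groups; HK2 and IL6ST are high in siCtrl, TPM4 and NOLC1 low in siCtrl, ZDHHC18 and GNPDA1 high in siATF6, SAMD5 has the compound arm between the siRNA groups and MMP1 has both siRNA groups above it.

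In other falls the siCtrl level was high. HK2, the hexokinase that traps glucose in the cell and is raised in many tumours, had 29.1, 32.4 and 30.3 CPM in siATF6 against 64.6, 70.7 and 68.0 CPM in siCtrl (log2 fold change −1.15, SE 0.0468, edgeR adjusted p = 1.9e-19). It had 31.4 ± 1.90 CPM in Ceapin and 29.4 ± 0.554 CPM in DMSO. The siATF6 libraries were at the level of the compound arm (0.01, edgeR adjusted p = 0.848) and the siCtrl libraries were above it (1.16, edgeR adjusted p = 2.1e-22).

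IL6ST (chromosome 5, 55935095 to 55994993, − strand), the receptor subunit shared by cytokines of the interleukin-6 family, had 296, 273 and 279.9 CPM in siATF6 against 599.6, 592 and 594 CPM in siCtrl. Ceapin averaged 319.5 ± 7.22 CPM and DMSO 320.5 ± 4.87 CPM. All 3 siCtrl libraries lay above the other 9, and all 3 siATF6 libraries lay below the other 9. Over all tested genes, the siCtrl libraries lay above or below the other 9 in 20.7% and the siATF6 libraries in 17%. The siCtrl distance from the compound arm was 0.90 and the siATF6 distance −0.18 (siATF6 minus siCtrl −1.07, SE 0.0244, edgeR adjusted p = 3.9e-26). SLC31A1, the main importer of copper, lay at the edge of the 2-fold threshold, with 107, 113 and 114 CPM in siATF6 against 219.6, 228 and 219.9 CPM in siCtrl (−1.0, SE 0.0299), with 121 ± 5.33 CPM in Ceapin and 125 ± 3.00 CPM in DMSO. It overlaps CDC26 on the other strand.

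LRP11, a membrane protein of the LDL receptor family, averaged 24.7 ± 1.03 CPM in siATF6 and 55.1 ± 0.934 CPM in siCtrl (−1.16), and EPB41L4B, a protein of the band 4.1 family, 22.8 ± 0.497 and 49.0 ± 2.13 CPM in these groups (−1.10). For both, siCtrl was the group apart, with distances of 0.93 and 0.90 from the compound arm. Smaller falls of this kind were seen in PARP14, an ADP-ribosyltransferase (siATF6 45.4 ± 2.68, siCtrl 67.8 ± 3.78, Ceapin 44.7 ± 0.0644 and DMSO 43.9 ± 2.32 CPM), and in NOTCH2, a receptor for ligands on neighbouring cells (siATF6 131 ± 2.26, siCtrl 184 ± 6.39, Ceapin 106 ± 2.33 and DMSO 98.3 ± 1.78 CPM). KLHL42, a substrate adaptor of a cullin ubiquitin ligase, had siATF6 at the level of the compound arm (−0.10, edgeR adjusted p = 0.0657) and siCtrl above it (0.60).

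Among rises with siCtrl apart, TPM4 and NOLC1 were abundant. TPM4 (chromosome 19, 16067021 to 16103005, + strand), a tropomyosin that coats actin filaments, had 559, 570.5 and 559.6 CPM in siATF6 against 255, 254 and 262 CPM in siCtrl (log2 fold change 1.13, SE 0.0221, edgeR adjusted p = 4.6e-28). Ceapin averaged 524 ± 4.53 CPM and DMSO 577 ± 11.3 CPM. The siATF6 libraries were near the compound arm (0.03, edgeR adjusted p = 0.0952) and the siCtrl libraries were the low ones (−1.10). TPM4 is an example of a gene that rose in the comparison while standing near its level in the compound arm.

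NOLC1, a nucleolar phosphoprotein that chaperones small nucleolar RNPs, had 428, 419.8 and 417 CPM in siATF6 against 202, 199 and 197 CPM in siCtrl, with 373 ± 3.03 CPM in Ceapin and 369 ± 6.58 CPM in DMSO (1.08, SE 0.0226, edgeR adjusted p = 3.6e-27). The siCtrl distance from the compound arm was −0.89 and the siATF6 distance 0.18. CDK14, a kinase that acts with cyclin Y in WNT signalling, averaged 17.8 ± 0.053 CPM in siATF6 and 8.57 ± 0.389 CPM in siCtrl (1.05), with 16.2 ± 0.422 CPM in Ceapin and 15.4 ± 0.295 CPM in DMSO; it overlaps CLDN12 on the same strand. OGFR, the opioid growth factor receptor, and DHX37, an RNA helicase of small ribosomal subunit assembly, followed at 0.92 and 0.89, each with siCtrl apart and low (−1.12 and −1.13 from the compound arm).

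Some genes were high in siATF6 itself. ZDHHC18, a palmitoyltransferase, had 172, 180.0 and 178 CPM in siATF6 against 97.9, 96.6 and 93.5 CPM in siCtrl, with 109 ± 1.41 CPM in Ceapin and 112 ± 2.49 CPM in DMSO (log2 fold change 0.88, SE 0.0284, edgeR adjusted p = 3.3e-22). GNPDA1, which turns glucosamine-6-phosphate back into fructose-6-phosphate, had 151, 154 and 146 CPM in siATF6 against 80.1, 79.9 and 84.8 CPM in siCtrl (0.88, SE 0.0320, edgeR adjusted p = 8.6e-21). Its siCtrl level was that of the compound arm (−0.01, edgeR adjusted p = 0.705), where Ceapin had 84.2 ± 1.00 and DMSO 80.6 ± 3.45 CPM. For both genes the 3 siATF6 libraries lay above the other 9.

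SRXN1, sulfiredoxin, which repairs over-oxidised peroxiredoxins, had the largest of the rises described here but was low and uneven, with 7.88, 10.5 and 10.2 CPM in siATF6 against 4.29, 3.25 and 3.96 CPM in siCtrl (1.32, SE 0.166, edgeR adjusted p = 1e-07). Ceapin replicate 3 had 4.52 CPM where the other Ceapin libraries had 1.99 and 2.29 CPM, and DMSO averaged 2.04 ± 0.431 CPM; another annotated gene overlaps SRXN1 on the same strand. CYB5RL, a protein like the cytochrome b5 reductases, averaged 18.4 ± 0.217 CPM in siATF6 and 9.58 ± 0.290 CPM in siCtrl (0.94). Its distances from the compound arm were 0.63 in siATF6 and −0.31 in siCtrl, so siCtrl was also low. RSPO3, a secreted enhancer of WNT signalling, averaged 18.5 ± 1.47 CPM in siATF6 and 10.2 ± 0.509 CPM in siCtrl (0.86). Its distances were 1.43 in siATF6 and 0.57 in siCtrl, so siCtrl was also raised. COL4A1, a chain of basement membrane collagen, was above the compound arm in both siRNA groups, by 1.30 in siATF6 and 0.56 in siCtrl.

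For 19 of the 107 large falls, the compound arm lay between the siRNA groups, ATF6 among them. SAMD5, which holds a sterile alpha motif, had 7.61, 7.06 and 7.61 CPM in siATF6 against 23.2, 21.6 and 23.2 CPM in siCtrl (log2 fold change −1.61, SE 0.0791), with 12.3 ± 0.657 CPM in Ceapin and 10.2 ± 0.907 CPM in DMSO. AMER1, a protein of the WNT pathway that binds APC, had distances of −0.94 in siATF6 and 0.48 in siCtrl. Neither gene can be put down to the siATF6 group or the siCtrl group alone.

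For the 8 falls with both siRNA groups on 1 side, both groups stood far from the compound arm. MMP1, a secreted collagenase, had 37.6, 36.8 and 36.9 CPM in siATF6 against 90.6, 86.7 and 84.6 CPM in siCtrl (−1.23, SE 0.0408, edgeR adjusted p = 5.8e-22), yet Ceapin had only 12.7 ± 1.08 CPM and DMSO 9.73 ± 0.452 CPM. It fell in the comparison while lying 1.74 above the compound arm on the log2 scale. F13A1, the catalytic chain of coagulation factor XIII, ran the other way, with 5.39, 5.43 and 5.62 CPM in siATF6 against 21.3, 21.6 and 20.1 CPM in siCtrl and 80.8 ± 1.23 CPM in Ceapin beside 84.2 ± 1.13 CPM in DMSO (−1.94, SE 0.0736). CEACAM6, a cell adhesion protein of epithelia, had 0.79 ± 0.05 CPM in siATF6, 2.32 ± 0.272 CPM in siCtrl, 8.87 ± 0.703 CPM in Ceapin and 8.99 ± 0.319 CPM in DMSO.

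Gene lists outside the unfolded protein response were counted next. They were chosen with earlier results of these data known, so the counts only describe the lists. They are read against the 16.1% of all tested genes that rose and the 15.3% that fell. All tested genes include sparse ones, and the part of expression level in the list shares was not tested. Of 30 tested genes of the nucleolus and ribosome assembly, 25 rose (83.3%) and none fell, with a median log2 fold change of 0.21 where the median of all tested genes was 0.0. In 16 of the 25, siCtrl stood apart, and in 3 siATF6 did; the list median was −0.05 from the compound arm in siATF6 and −0.25 in siCtrl. TCOF1, the treacle protein of ribosomal RNA transcription, had 106, 114 and 112 CPM in siATF6 against 70.4, 75.2 and 70.9 CPM in siCtrl, with 145 ± 6.76 CPM in Ceapin and 142 ± 4.60 CPM in DMSO (0.61, edgeR adjusted p = 1.4e-14). DKC1, the pseudouridine synthase of small nucleolar RNPs, averaged 175 ± 2.60 CPM in siATF6 and 132 ± 3.83 CPM in siCtrl (0.40), with 188 ± 0.879 CPM in Ceapin and 184 ± 1.60 CPM in DMSO. For TCOF1 and DKC1, the order of the groups was siCtrl lowest, then siATF6, then the compound arm.

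Mitochondrial ribosome and import genes moved the same way, with 20 of 34 higher (58.8%) and 1 lower, a list median of 0.16, and medians of −0.07 in siATF6 and −0.19 in siCtrl from the compound arm. TOMM22, the central receptor of the import pore, averaged 81.6 ± 1.85 CPM in siATF6 and 50.4 ± 2.72 CPM in siCtrl (0.70), with 97.0 ± 0.211 CPM in Ceapin and 98.6 ± 1.71 CPM in DMSO. LONP1, the protease of the mitochondrial matrix, and TOMM34, a cytosolic import factor, had siATF6 apart instead: LONP1 averaged 152 ± 4.75 CPM in siATF6 and 103 ± 4.35 CPM in siCtrl, against 90.4 ± 3.77 CPM in Ceapin and 88.9 ± 2.42 CPM in DMSO. The import list therefore held both a low siCtrl and a high siATF6 among its members.

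Of 35 splicing factors 15 rose and none fell, with small sizes: U2AF2, which reads the polypyrimidine tract, changed by 0.32 and PTBP1, a splicing repressor, by 0.20, both with siCtrl apart and low. Of 35 genes of translation initiation and elongation 16 rose and 4 fell. EIF3B, a scaffold subunit of initiation factor eIF3, averaged 308 ± 1.16 CPM in siATF6 and 240.5 ± 5.25 CPM in siCtrl (0.36), whereas EIF1AX, the X-linked gene of the start codon factor eIF1A, fell by 0.60 on the log2 scale, at 81.4 ± 4.68 CPM in siATF6 and 124 ± 1.46 CPM in siCtrl. Of 33 nuclear pore and transport genes 17 rose and 5 fell, but only 11 rose without siCtrl replicate 2; among the falls were NUP210, a membrane protein of the pore (−0.66), and IPO7, an import receptor (−0.34).

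Purine and pyrimidine synthesis had 15 of 31 genes higher and 6 lower. ADSL, which makes AMP and acts earlier in purine synthesis too, averaged 73.0 ± 1.64 CPM in siATF6 and 52.7 ± 0.293 CPM in siCtrl (0.47), and PFAS, another purine enzyme, 77.6 ± 4.85 and 56.3 ± 0.620 CPM (0.46), both with siCtrl apart and low. DUT, which removes dUTP, went against the list with 31.8 ± 1.87 CPM in siATF6 and 52.5 ± 2.10 CPM in siCtrl (−0.72), and the compound arm was higher still, at 80.9 ± 2.30 CPM in Ceapin and 86.3 ± 3.84 CPM in DMSO. ADSL overlaps SGSM3 on the same strand.

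**Figure D3:**
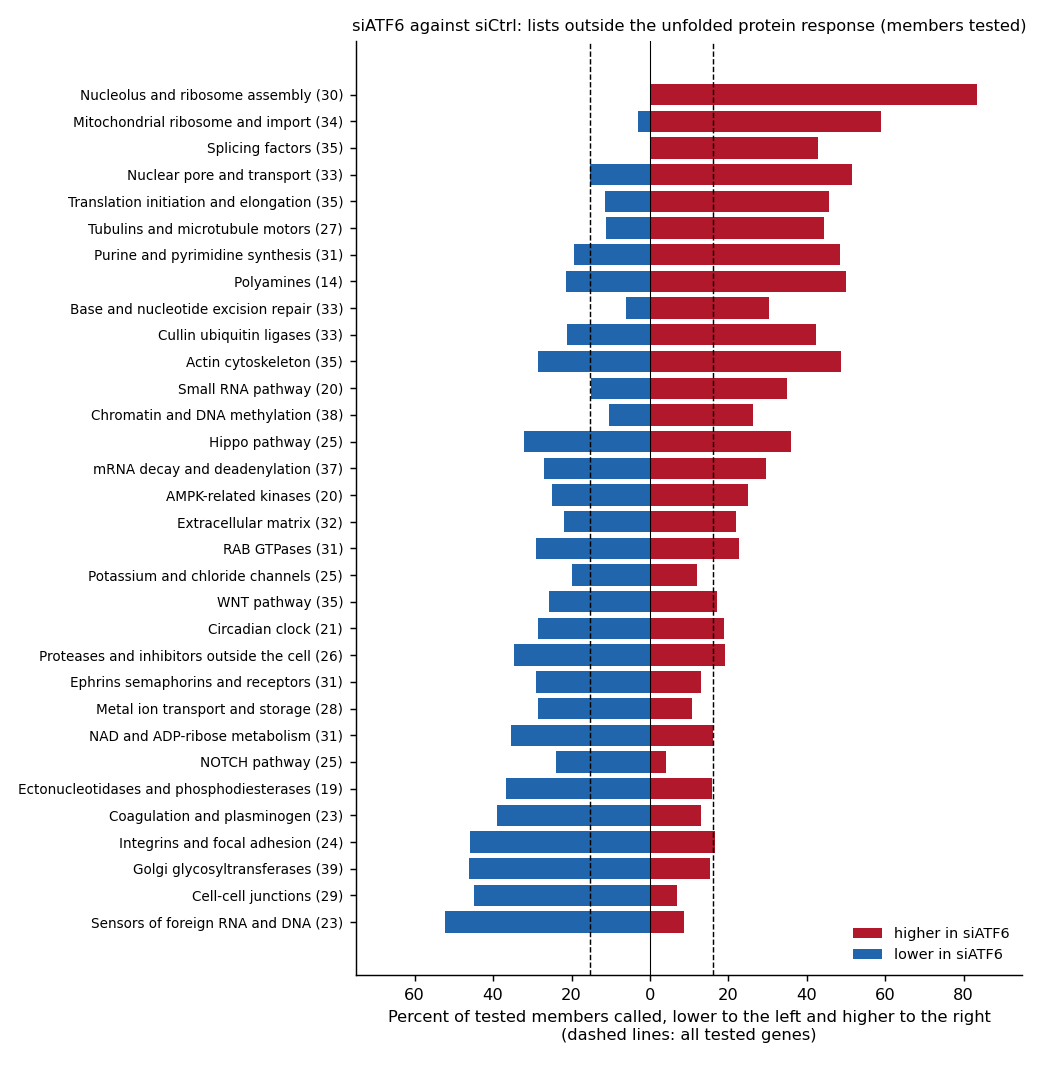
For each list shown from outside the unfolded protein response (rows, with the number of tested members), bars give the percent of tested members that rose in siATF6 (right) or fell (left); dashed lines mark the 16.1% and 15.3% over all tested genes. The nucleolus list has the longest bar to the right (83.3%) and sensors of foreign RNA and DNA the longest to the left (52.2%).

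Several lists of the cell surface and secretory route had more falls than rises. Of 39 Golgi glycosyltransferases 18 fell (46.2%) and 6 rose, with a median of −0.12. B3GNT5, which starts the lacto chains of glycolipids, averaged 67.9 ± 1.46 CPM in siATF6 and 103 ± 2.29 CPM in siCtrl (−0.61), and B4GALT5, which makes lactosylceramide, 117 ± 2.22 and 166 ± 1.23 CPM (−0.51); in both, siATF6 was the low group, Ceapin having 118 ± 3.44 and 180.1 ± 4.22 CPM for these genes. EXT2, a polymerase of heparan sulfate, had the compound arm between (−0.51 in siATF6 and 0.26 in siCtrl). Of 29 genes of cell-cell junctions 13 fell (44.8%) and 2 rose. DSC2, a desmosomal cadherin, averaged 58.3 ± 0.508 CPM in siATF6 and 94.0 ± 2.05 CPM in siCtrl (−0.69). CDH3, P-cadherin, averaged 23.7 ± 0.345 and 29.8 ± 1.35 CPM in the same groups (−0.33). For CDH3 both groups lay far below Ceapin (149 ± 2.53 CPM) and DMSO (154 ± 3.49 CPM). Its distances from the compound arm were −2.68 in siATF6 and −2.35 in siCtrl.

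Integrins and focal adhesion genes gave 11 of 24 lower (45.8%) and 4 higher. ITGA2, the collagen receptor subunit, averaged 332 ± 5.89 CPM in siATF6 and 461 ± 2.93 CPM in siCtrl (−0.47), against 267 ± 1.98 CPM in Ceapin and 222 ± 4.71 CPM in DMSO. ITGAV and ITGB1, subunits of fibronectin and vitronectin receptors, fell by 0.28 and by 0.18 on the log2 scale. All 3 integrin genes were above the compound arm in both siRNA groups, and more so in siCtrl, so their fall was again a difference between 2 raised levels. The list medians were −0.1 from the compound arm in siATF6 and 0.07 in siCtrl, so these 3 genes do not stand for the list.

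The actin cytoskeleton list was mixed, with 17 of 35 higher and 10 lower. MYH9, the heavy chain of non-muscle myosin, had siATF6 apart and high, with 1721, 1809.8 and 1785 CPM in siATF6 against 1306, 1339 and 1291 CPM in siCtrl (0.43, SE 0.0207), with 1419.8 ± 27.4 CPM in Ceapin and 1461 ± 12.6 CPM in DMSO. In the tubulin and motor list 12 of 27 genes rose and 3 fell.

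Genes of the small RNA pathway, the machinery that siRNAs enter, were read in both siRNA groups. Of 20 tested, 7 rose (35%) and 3 fell (15%), and the list medians were 0.08 from the compound arm in siATF6 and −0.02 in siCtrl. SND1, a nuclease found with Argonautes, averaged 207 ± 2.54 CPM in siATF6 and 170.5 ± 2.54 CPM in siCtrl (0.28, edgeR adjusted p = 2e-11), with Ceapin (182 ± 0.717 CPM) and DMSO (185 ± 2.01 CPM) between them. AGO4, an Argonaute, averaged 43.2 ± 1.23 CPM in siATF6 and 51.7 ± 2.18 CPM in siCtrl (−0.26), and both groups lay above Ceapin (25.1 ± 0.949 CPM) and DMSO (25.8 ± 1.11 CPM). TNRC6A, the scaffold that Argonautes bind, averaged 159 ± 0.971 CPM in siATF6 and 133 ± 3.61 CPM in siCtrl (0.26), with 80.2 ± 0.578 CPM in Ceapin and 82.4 ± 0.937 CPM in DMSO. For AGO4 and TNRC6A, unlike SND1, both siRNA groups stood farther from the compound arm than from each other.

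**Figure D4:**
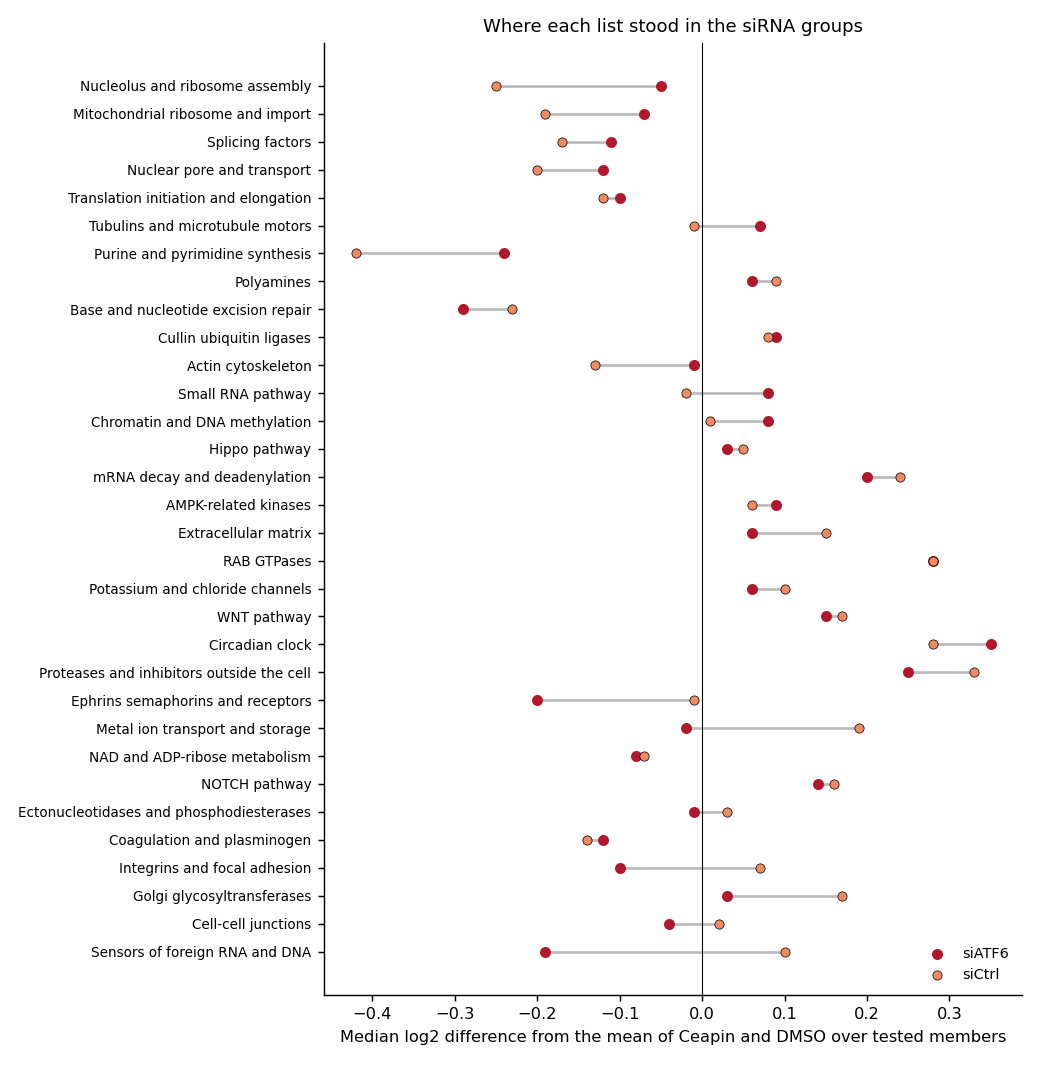
For each list shown (rows), points give the median log2 distance of siATF6 and of siCtrl from the mean of Ceapin and DMSO over tested members (horizontal axis); the line between them is the gap. The siCtrl median of the nucleolus list is −0.25 and its siATF6 median −0.05, whereas for sensors of foreign RNA and DNA siATF6 lies at −0.19 and siCtrl at 0.10.

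Sequence features of the changed mRNAs were described for a 7-base sequence, GAGTCAT, that an earlier search of these same data had found more often in the 3′ UTRs of genes that fell, so its share in that group is no independent result. The siRNA sequences are not given in the sources used here, so nothing is said of pairing. The longest 3′ UTR per gene in GENCODE v29 (GRCh38) was read on the mRNA strand. Examples from ATF6 and from genes of each kind follow, with GAGTCAT in capitals and 12 and 10 flanking bases in lower case.
ATF6, chr1:161962218-161962246, + strand: gcaatgttatgtGAGTCATtcttaagtgt
ATF6, chr1:161962879-161962907, + strand: ttcatcagtcctGAGTCATtttaacttac
ENPP5, chr6:46160569-46160597, − strand: tgatttcctgatGAGTCATattactgtga
ADGRG6, chr6:142444532-142444560, + strand: agacatatgggtGAGTCATaataatcaaa
ADGRG6, chr6:142445864-142445892, + strand: tacattgtgttaGAGTCATagtctaggat
MSN, chrX:65739992-65740020, + strand: agagcagccctgGAGTCATgccaagcatt
IL6ST, chr5:55942693-55942721, − strand: agatccttcaaaGAGTCATattgcccagt
IL6ST, chr5:55937616-55937644, − strand: taaaagaatatgGAGTCATaaaatggcaa
EPB41L4B, chr9:109174141-109174169, − strand: ctgtttgttaaaGAGTCATttttaatgaa
SAMD5, chr6:147564778-147564806, + strand: gctaaggcatttGAGTCATaacttagttt

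GAGTCAT stood in the 3′ UTR of 1152 of 13468 tested genes with a UTR of at least 50 bases (8.55%). It was in 520 of 2506 genes that fell (20.8%), in 108 of 2675 that rose (4.04%) and in 524 of 8287 that were not called (6.32%). Among large falls 30 of 75 held it (40%), and among large rises 0 of 18. Divided by the level in the compound arm, the share was 43.2% of large falls with siATF6 apart (16 of 37), 38.9% of those with siCtrl apart (7 of 18) and 46.2% of those with the compound arm between (6 of 13). All 3 groups are subsets of the falls, so shares above the 8.55% of all tested genes follow from how the sequence was found, and the differences between the 3 shares were not tested.

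Falls with siATF6 apart that hold it include ENPP5, an ectonucleotide phosphodiesterase (9.20 ± 0.332 CPM in siATF6 and 29.1 ± 0.684 CPM in siCtrl, −1.66), NIPAL1, a magnesium transporter (13.7 ± 1.17 and 35.9 ± 2.04 CPM, −1.39), VMA21, an assembly factor of the vacuolar proton pump (32.6 ± 0.778 and 83.0 ± 1.99 CPM, −1.35), RBM24, an RNA-binding splicing regulator (8.99 ± 0.13 and 23.1 ± 0.658 CPM, −1.36), DPCD (−1.53), PID1 (−1.26), MSN and MAP1B. IL6ST, EPB41L4B and SLC31A1 hold it with siCtrl apart. ADPRH, MELK, PYGB, CLOCK, OAS3, SEMA3C and NF2 fell in siATF6 without holding all 7 bases. Of these, PYGB, CLOCK, OAS3, SEMA3C and NF2 hold a 6-base part of it (GAGTCA or AGTCAT), and ADPRH and MELK hold neither. A 6-base part stood in 44.2% of all tested genes with a UTR of at least 50 bases.

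The sequence was found by its frequency among falls of this same comparison, so the next values on siATF6 and siCtrl are a description that restates that search. Genes with 1 copy had a median log2 fold change of −0.13 (1032 genes) and those with 2 or more −0.19 (120 genes), against 0.01 in 12316 genes with none. Between Ceapin and DMSO, where 4.62% of all tested genes differed, the median of genes with any copy was 0.0, and 10.3% of the genes that fell and 12.3% of those that rose held it. Measured from the compound arm, genes with any copy had medians of −0.06 in siATF6 and 0.11 in siCtrl, against −0.01 and −0.02 for genes with none. UTR length moved with the match (median 3480 bases with any copy, 1260 without). With genes split into 4 equal bins of UTR length, 45% of genes with the match and 26.3% of those without fell in the longest bin, and 43.6% (17 of 39) and 8.53% in the shortest. These shares rest on the falls that led to the sequence, and the part of UTR length in them was not tested.

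**Figure D5:**
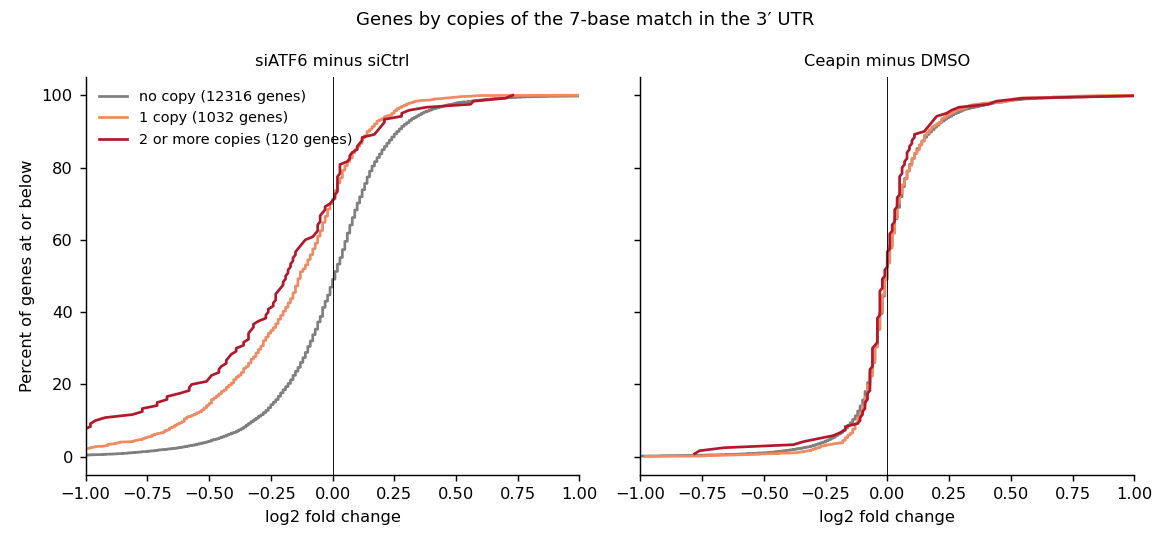
Cumulative percent of genes (vertical axis) by log2 fold change (horizontal axis) for genes with no copy (12316), 1 copy (1032) or 2 or more copies (120) of GAGTCAT in the 3′ UTR. On the left, siATF6 minus siCtrl, the curves with copies lie to the left of the curve without; on the right, Ceapin minus DMSO, the 3 curves nearly coincide.

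Promoters were searched for the known ER stress response elements, ERSE (CCAAT and CCACG with any 9 bases between) and ERSE-II (ATTGG and CCACG with any 1 base between), on both strands in the window of 250 bases before to 50 after the start of each gene (RefSeq, GRCh38.p14). A match describes the letters and is not evidence of binding. Of 11935 tested genes with such a window, 25 held a match (0.209%). They made up 8 of 57 genes of the unfolded protein response lists that fell (14%), where 11 of all 183 list members held one (6.01%). Outside the lists they made up 2 of 2048 genes that fell (0.0977%) and 3 of 2242 that rose (0.134%), near the 14 of 11752 over all genes outside the lists (0.119%).

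The pair that fell outside the lists was SERP1 and PLS3, and SERP1 shares its element with a neighbour. Outside means here only that no list names the gene. SERP1 acts at entry into the ER, a process that the lists cover, so it is not shown to lie outside the unfolded protein response. With SERP1 set aside, PLS3 was the fall that remained. SERP1, a small protein bound to the translocon through which new proteins enter the ER, and EIF2A, a translation initiation factor, are read in opposite directions from nearby starts, and the same 19 bases lie in both windows. The ERSE-II of PLS3 is shown with it, as are those of GYS1 and SHCBP1, which rose, with the bases fixed by the motif in capitals.
SERP1 and EIF2A, chr3:150546710-150546728, + strand: CCAATtcgctgtctCCACG
PLS3, chrX:115561057-115561067, − strand: ATTGGgCCACG
GYS1, chr19:48993383-48993393, + strand: ATTGGcCCACG
SHCBP1, chr16:46621437-46621447, − strand: ATTGGtCCACG

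SERP1 had 143, 136 and 127 CPM in siATF6 against 203, 206 and 202 CPM in siCtrl (log2 fold change −0.59, SE 0.0294, edgeR adjusted p = 4.2e-17), with 128 ± 1.12 CPM in Ceapin and 133 ± 2.82 CPM in DMSO. The siATF6 libraries were at the level of the compound arm (0.05, edgeR adjusted p = 0.107) and the siCtrl libraries lay above it by 0.64. Its 3′ UTR also holds GAGTCAT. EIF2A, named after its values were seen, had 131, 131 and 126 CPM in siATF6 against 117, 109.4 and 121 CPM in siCtrl (0.16, edgeR adjusted p = 9.1e-05). The genes on the 2 sides of this element thus moved in opposite directions. SERP1 and EIF2A overlap on opposite strands. PLS3, an actin bundler, fell by only 0.12 on the log2 scale, at 385 ± 4.98 CPM in siATF6 and 417 ± 0.448 CPM in siCtrl. GYS1, muscle glycogen synthase, rose by 0.33 and SHCBP1, a protein of the dividing cell's midbody, by 0.14, both named after their values were seen.

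Markers were read for the line and for other cells. Of 7 epithelial markers 6 were tested and 5 fell (83.3%, beside 15.3% of all tested genes). Their summed level was 892 to 926 CPM in the siATF6 libraries and 1000 to 1050 CPM in the siCtrl libraries. KRT8, a keratin of simple epithelia, averaged 155 ± 7.76 CPM in siATF6 and 173 ± 3.57 CPM in siCtrl (−0.16), and EPCAM, an epithelial adhesion protein, 36.3 ± 1.44 and 45.8 ± 0.827 CPM (−0.33). In the compound arm KRT8 stood much higher, at 631 ± 25.3 CPM in Ceapin and 653 ± 11.1 CPM in DMSO. The gap was smaller for EPCAM, at 65.1 ± 2.53 CPM in Ceapin and 70.7 ± 2.64 CPM in DMSO. Of 7 leukocyte markers 1 was tested, of 7 fibroblast markers 4, of 5 endothelial markers 4 and of 5 androgen-dependent prostate markers 2, and none of these passed the threshold. Their part in any result above was not tested.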

How the data were processed

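The table covers 12 DU145 libraries of a stranded TruSeq kit, per the labels' protocols. It holds expected counts per gene, whole numbers not scaled for depth, which the authors deposited and which came from Salmon with hg38, per the submitters' processing notes. The Salmon version, annotation and strand setting are not given in the sources used here. All 21439 genes have a count of at least 1 in every library, and no gene with a 0 was analysed here. Groups follow the sample titles. Columns of the control siRNA carry a prefix of their own and were assigned to siCtrl because the other 3 prefixes match titles, with replicates by number. For transfection, 1 label field gives the DMSO libraries the control siRNA and the Ceapin libraries the ATF6 siRNA, which their titles and treatment text do not mention, and ATF6 mRNA was not lower in Ceapin than in DMSO. The labels do not say that replicates are separate cultures, so p-values measure the spread between these samples, which may be technical.

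All 12 libraries were fitted together in edgeR 4.0.16 (R 4.3.3) with 1 term per group, after filterByExpr (3616 genes removed) and TMM scaling, by the quasi-likelihood method with 8 residual degrees of freedom. P-values are two-sided and were adjusted by Benjamini-Hochberg over 17823 genes. Distances from the compound arm are contrasts of the same fit, CPM are TMM-scaled, and a large change is a called gene of at least 2-fold. Each SE was derived from the test and not fitted. It is the size of the log2 fold change divided by the square root of the quasi-likelihood F statistic. It may be too small or too large for sparse genes. A reference gene table gave symbols for 21201 genes, and GENCODE v29 gave positions and 3′ UTRs. Where genes overlap, their reads may be mixed.

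The members and gene lists were chosen with earlier results of these data known. The genes named follow a rule: ATF6, then called genes outside the unfolded protein response lists with a mean of at least 1 CPM in the 6 siRNA libraries and no overlap between the groups. Of these, the 12 largest falls and rises, the 6 largest per direction with siATF6 or siCtrl apart, the 5 per direction with the largest difference in CPM, up to 3 per list by smallest p, the 8 largest falls with GAGTCAT and up to 8 falls with an ERSE were taken, and genes with near-identical copies or calls that end without 1 library could be left out. The rule gave 140 genes, and the Results describe only part of them. Some left undescribed, such as ROBO4 and ACTB, kept their call in all 14 alternative settings. EIF2A, GYS1 and SHCBP1 lie outside the rule. The results of 1 gene list are not reported here. Alternatives were other scalings and filters, DESeq2 1.42.0, limma-voom 3.58.1, the replicate block, only the 6 siRNA libraries, each siRNA library left out, other thresholds and distance ratios, Ceapin or DMSO alone as the level to measure from, and other UTRs and motifs. Those for the list counts and for the split of large changes by direction were chosen after seeing the data. On data simulated for siATF6 against siCtrl (17823 genes), 24 of 50 genes changed 1.2-fold, 28 of 50 changed 1.5-fold, 43 of 50 changed 2-fold and 49 of 50 changed 4-fold were called, with 11 of 17300 unchanged genes. Apart from the changed genes, all 4 groups had the same means there, whereas 31.4% of tested genes were called in the real data. The shares called may therefore differ in the real fit.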

Additional observations from a re-analysis of the deposited data

How the results depend on the processing

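Of 357 recomputed counts and shares, 319 kept near the value in the report. Counts had to lie within 1.5 times that value, and the UTR and promoter shares within its binomial confidence interval. Large rises numbered 53 with no filter, 13 with 1 CPM in 3 libraries, 9 with DESeq2 and 17 at adjusted p under 0.01, and large falls 51 with DESeq2. The counts with siATF6 apart were 31 with DESeq2 and 125 at a log2 size of 0.8. Those with siCtrl apart were 56 with no filter, 22 with 1 CPM, 11 with DESeq2, 22 at adjusted p under 0.01 and 76 at 0.8. By direction, rises with siATF6 apart were 12 with no filter, 4 with 1 CPM, 2 with DESeq2, 11 at a ratio of 1.5 and 15 at 0.8. Rises with siCtrl apart were 24 with no filter, 6 with 1 CPM, 4 with DESeq2, 7 at adjusted p under 0.01 and 28 at 0.8. Falls with siATF6 apart were 29 with DESeq2, 37 at adjusted p under 0.01 and 110 at 0.8, and falls with siCtrl apart 7, 15 and 48. The share of falls with a UTR match was 67% for its 6-base parts and 18.5% with the UTR of the longest coding sequence, and the promoter share was 47.1% for CCACG alone. The cause of these shifts was not tested, except that a looser size or motif admits more genes by construction. Leaving out 1 library gave 32 to 53 large rises, 7 to 15 rises with siATF6 apart, 11 to 24 with siCtrl apart, and 11 to 15 nuclear pore genes higher. Over all tested genes, same-numbered siATF6 and siCtrl libraries showed no shared deviation (r 0.000821, 0.0296 and −0.00648). Counting noise of sparse genes enters these values, so they cannot exclude a shared culture or batch, and pairing by number stays unsettled. With the replicate block 2850 genes rose and 2688 fell, with 34 large rises and 106 large falls, and no count moved by over 1.5 times. Of 95 genes checked in 14 settings, 94 kept their call and none reversed; MT-ATP6 lost it with DESeq2 (adjusted p = 0.0532). Scaling moved the median of all genes by at most 0.011 in size. Depth limits the sparse genes: 60 of 138 large changes had a mean under 1 CPM.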
